A study of Homo sapiens with 8 samples.

Results

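The genes described here are 52 components of the Wnt and beta-catenin pathway, measured in OAW42-R cells after knockdown of the long noncoding RNA UCA1. A gene was taken when the RefSeq accession of an array probe mapped to its symbol on a list of ligands, receptors, cytoplasmic regulators and nuclear factors. Of the 52 listed genes, 51 had a probe, 69 probes in all, and 38 were measured well enough to be tested among 15457 genes.

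OAW42-R is a cisplatin-resistant human ovarian carcinoma line that was derived from the OAW42 line by exposure to cisplatin. Total RNA was hybridized to 8 one-colour Agilent arrays. In the sictrl group, 4 cultures were transfected with the Lincode nontargeting siRNA pool. In the siUCA1 group, 4 cultures received Lincode siRNAs 2 and 4 against UCA1 as a mixture. INTERFERin carried the siRNAs in both groups, at a final concentration of 20 nM, and the labels name no cisplatin treatment of either group. The labels place RNA extraction at 24 h, whereas the methods of the study give a later time. All cultures were of 1 cell line, and no array held a single siRNA or an untreated culture, so an effect of 1 siRNA of the mixture cannot be told apart from that of the knockdown. Replicates are named A1, M2, A2 and A3 after the labels, and the methods speak of 4 independent experiments without tying these names to them.

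Wnt ligands are secreted lipid-modified proteins that bind Frizzled receptors together with LRP5 or LRP6. Without a ligand, a destruction complex built on AXIN and APC holds beta-catenin (CTNNB1) for phosphorylation and degradation. Ligand binding recruits Dishevelled, the complex is blocked, and beta-catenin accumulates and switches on target genes with the TCF and LEF factors. Some ligands, WNT5A among them, are best known for signalling through ROR receptors without beta-catenin. In ovarian carcinoma the pathway is often discussed in relation to cell plasticity and resistance to chemotherapy.

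The level of a gene is given as the log2 processed intensity of its probe relative to the 75th percentile of that array, so that 0 is the 75th percentile. Levels of different genes come from different probes and are not compared. Values of 4 arrays are always listed in the order A1, M2, A2 and A3. Differences are siUCA1 minus sictrl on the log2 scale, with the standard error (SE) of the limma model. A gene is said to have risen or fallen when its limma p, adjusted by Benjamini-Hochberg over all 15457 genes, was under 0.05.

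UCA1 itself lay between 7.52 and 8.62 in sictrl and between 2.61 and 3.71 in siUCA1, a fall of 33.0-fold (log2 difference -5.04, SE 0.29, adjusted p = 0.000112). Between 20858 and 24039 of 60901 spots per array were well above background. On sictrl A3 and siUCA1 A1 the software had corrected a larger trend over the surface (root mean square 0.321 and 0.287) than on the other 6 arrays (0.0737 to 0.0943). For genes given array by array, the difference without one of these arrays is added where its size moved by over 1.5 times. Of 13 serous ovarian carcinoma markers, 8 were above background on all 8 arrays and WT1, MUC16, MSLN and WFDC2 on none. The summed linear level of this list was 617 to 837 times the 75th percentile in sictrl and 827 to 1213 in siUCA1. No fibroblast marker of 6 was above background on all 8 arrays. The leukocyte marker PTPRC was above background on 0 sictrl and 3 siUCA1 arrays. Of the endothelial list VWF was so on all 8, and PECAM1 on 1 array of each group. The summed levels of the fibroblast and endothelial lists overlapped between the groups, at 0.243 to 0.394 against 0.334 to 0.505 for fibroblasts and 0.808 to 0.993 against 0.926 to 1.33 for endothelium. The part of these markers in the results below was not tested.

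Part of the pathway was not measurable on these arrays. The 38 tested genes were above background on all 8 arrays, whereas 13 listed genes with a probe did not pass the filter, which asked for 4 arrays of 1 group. They were the ligands WNT4, WNT5B, WNT6, WNT9A, WNT10A and WNT11, the Wnt transporter WLS, the receptors ROR2 and LGR5, the antagonist DKK1, the Dishevelled inhibitor NKD1, and the DNA-binding factors TCF7L2 and LEF1. No probe of 12 of them was well above background on any array, and WLS was so on 1 siUCA1 array with 1 of its 2 probes. TCF7L2 had 3 probes, and all 3 are among these. CSNK1A1, the kinase that primes beta-catenin for degradation, had no probe with a matching accession.

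Of the 38 genes, 6 changed after UCA1 knockdown (15.8%), against 11.4% of all genes tested. WNT5A, FZD8, SFRP1 and FZD4 rose (10.5%, against 5.62% of all genes), and FZD2 and TCF7L1 fell (5.26%, against 5.8%). At an unadjusted p under 0.05 there were 17 genes, where the share over all genes was 27.5%. The 4 values of each group did not overlap for 12 genes (31.6%, against 20.7% of all genes), of which 7 did not pass the adjusted threshold. The median difference of the 38 genes was 0.080, beside 0.029 over all genes, and their median absolute difference was 0.29, beside 0.20. Positive differences were seen for 23 genes and negative ones for 15, which became 17 and 21 when arrays were scaled to their median instead. Over all genes tested, 8331 differences were positive and 7126 negative. Over all genes 49.2% of the changes were rises, and 20.7% under median scaling. RNA was taken from whole cultures, in which fewer cells carrying a transcript and less of it per cell cannot be told apart.

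**Figure D1:**
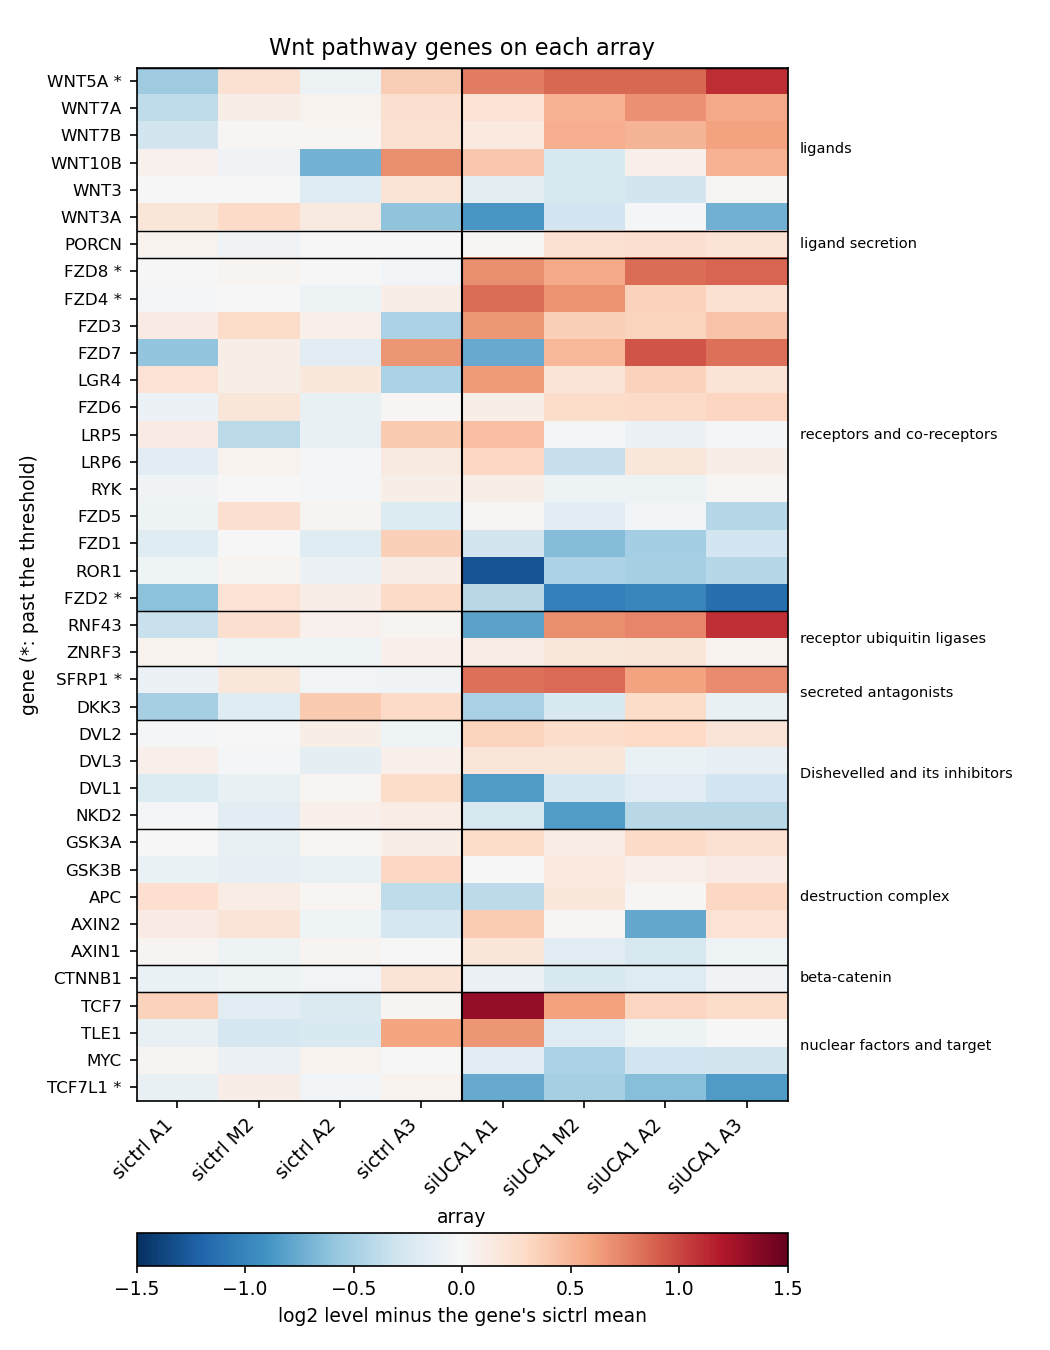
Each line is 1 of the 38 tested genes, grouped by role, and each column 1 array; the colour gives the log2 level minus the mean of the gene over the 4 sictrl arrays, and an asterisk marks an adjusted p under 0.05. The siUCA1 columns are all red for WNT5A, FZD8, FZD4 and SFRP1 and all blue for FZD2 and TCF7L1, and siUCA1 A1 differs in colour from the other 3 siUCA1 columns for RNF43 and FZD7.

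Among the ligands, 6 of 12 were tested and WNT5A alone passed the threshold (16.7%, near the 11.4% of all genes). WNT5A (NM_003392, chromosome 3, 55465715 to 55505263 in GRCh38.p14) had log2 levels of -0.062, 0.70, 0.39 and 0.84 in sictrl and 1.23, 1.33, 1.33 and 1.57 in siUCA1. Every siUCA1 value lay above every sictrl value, and the lowest of the 8 was sictrl A1. The rise was 0.90 (SE 0.19, 1.86-fold, adjusted p = 0.0200; two-sided exact permutation p = 0.0286, the smallest that 4 against 4 arrays allow). The adjusted p was 0.0646 without sictrl A2, 0.0554 without siUCA1 M2, 0.0595 without siUCA1 A2 and 0.0566 without siUCA1 A3, with differences of 0.72 to 1.02 over all 8 such fits.

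WNT7A and WNT7B are close relatives, and WNT7A is known for patterning the epithelium of the female reproductive tract. WNT7A had levels of 4.14, 4.61, 4.57 and 4.76 in sictrl and 4.74, 5.04, 5.21 and 5.09 in siUCA1. WNT7B had levels of 4.32, 4.61, 4.62 and 4.82 in sictrl and 4.74, 5.13, 5.10 and 5.20 in siUCA1. In both, siUCA1 A1 lay within the sictrl values and the other 3 siUCA1 arrays lay above all of them. The differences were 0.50 for WNT7A (SE 0.16, adjusted p = 0.0771) and 0.45 for WNT7B (SE 0.14, adjusted p = 0.0785), neither past the threshold. Without siUCA1 A1 they were 0.59 (adjusted p = 0.0409) and 0.55 (adjusted p = 0.0277), and without sictrl A3 that of WNT7B was 0.52 (adjusted p = 0.0482). Both genes passed when the replicate name was fitted as a block. The probes of WNT7B disagreed, since a dimmer probe, above background on 4 sictrl and 2 siUCA1 arrays, gave -0.39 and a probe that was not kept -0.19. Whether the bright WNT7B probe also binds WNT7A RNA was not tested.

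WNT3A, the ligand most used to switch on beta-catenin signalling in culture, had levels of -0.63, -0.53, -0.68 and -1.41 in sictrl and -1.68, -1.10, -0.83 and -1.53 in siUCA1. The groups overlapped because sictrl A3 lay under siUCA1 M2 and A2, and the difference was -0.47 (SE 0.24, adjusted p = 0.249). Its second kept probe gave a difference of -0.00060. The ligands WNT3 (-0.16, adjusted p = 0.423) and WNT10B (0.19, adjusted p = 0.716) did not pass either, nor did PORCN, the enzyme that adds the lipid to Wnt proteins (0.18, adjusted p = 0.241).

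**Figure D2:**
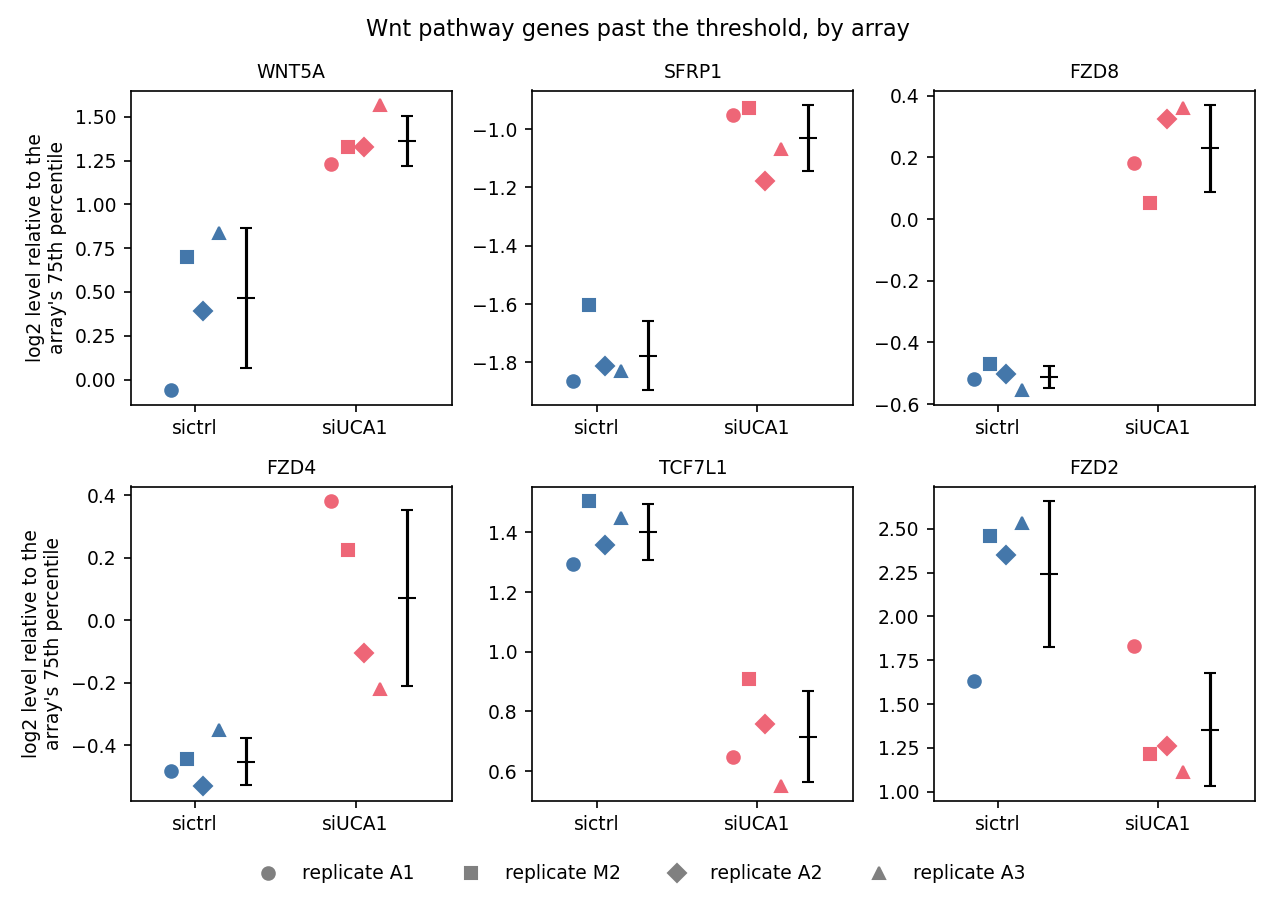
Points are the log2 levels on the 4 sictrl and 4 siUCA1 arrays for WNT5A, FZD8, SFRP1, FZD4, TCF7L1 and FZD2, relative to the 75th percentile of each array, and the bars are the group mean and SD. The groups are separate in 5 panels, and in the FZD2 panel the sictrl A1 point lies below the siUCA1 A1 point.

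Of 13 receptors and co-receptors tested, 3 changed (23.1%, against 11.4% of all genes), all of them Frizzled receptors. FZD8 and FZD4 rose and FZD2 fell, while the other 5 Frizzled genes did not pass. FZD8 (NM_031866, chromosome 10, 35638247 to 35642296) had levels of -0.52, -0.47, -0.50 and -0.56 in sictrl and 0.18, 0.053, 0.33 and 0.36 in siUCA1. The 4 sictrl arrays lay within a narrow range and all siUCA1 arrays stood clear above it. It rose by 0.74 (SE 0.097, 1.67-fold, adjusted p = 0.00380), the smallest p of the 38 genes, and passed with any 1 array left out (adjusted p up to 0.0195).

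FZD4 (NM_012193, chromosome 11, 86945679 to 86955395), which also serves as the receptor of the non-Wnt ligand norrin, had levels of -0.48, -0.44, -0.53 and -0.35 in sictrl and 0.38, 0.23, -0.11 and -0.22 in siUCA1. All siUCA1 values lay above the sictrl values, siUCA1 A3 by the least. Its rise of 0.52 (SE 0.14, 1.44-fold, adjusted p = 0.0485) was close to the threshold. The adjusted p was 0.109, 0.116, 0.129 and 0.0538 without sictrl A1, M2, A2 and A3 in turn, and 0.0619, 0.126 and 0.0810 without siUCA1 A1, M2 and A2. FZD4 did not pass when the replicate name was fitted as a block.

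FZD2 (NM_001466, chromosome 17, 44557484 to 44561262), a receptor used by WNT5A, had levels of 1.63, 2.46, 2.35 and 2.53 in sictrl and 1.83, 1.22, 1.26 and 1.11 in siUCA1. The groups overlapped, since sictrl A1 lay below siUCA1 A1, and both A1 arrays stood apart from the rest of their group. FZD2 fell by 0.89 (SE 0.23, 1.85-fold, adjusted p = 0.0410; two-sided exact permutation p = 0.0571). The adjusted p was 0.114, 0.109 and 0.0716 without sictrl M2, A2 and A3 in turn and 0.107, 0.110 and 0.101 without siUCA1 M2, A2 and A3, while the difference stayed between -1.09 and -0.79. FZD2 did not pass when the replicate name was fitted as a block.

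FZD1 and FZD3 did not overlap between the groups, but did not pass the adjusted threshold. FZD1 had levels of 2.07, 2.26, 2.08 and 2.61 in sictrl and 1.98, 1.61, 1.74 and 1.96 in siUCA1, a difference of -0.43 (SE 0.15, adjusted p = 0.0987). FZD3 had levels of -0.37, -0.21, -0.42 and -0.97 in sictrl and 0.16, -0.13, -0.16 and -0.061 in siUCA1, a difference of 0.44 (SE 0.17, adjusted p = 0.126). Without sictrl A3, the lowest array, it was 0.28 (adjusted p = 0.132). In each gene the gap between the nearest arrays of the 2 groups was small beside the spread within sictrl. FZD7, a Frizzled often studied in ovarian carcinoma and given in full after its values were seen, lay at -0.78, 0.48, 0.93 and 0.81 in siUCA1 and -0.61, 0.077, -0.19 and 0.64 in sictrl. Both A1 arrays were the lowest of their group, and the difference was 0.38 (adjusted p = 0.584). It was 0.60 (adjusted p = 0.360) without sictrl A3, 0.76 (adjusted p = 0.107) without siUCA1 A1, and 0.98 (adjusted p = 0.0162) without both sictrl A3 and siUCA1 A1. Over all fits with 1 array left out the FZD7 difference ran from 0.19 to 0.76 (adjusted p up to 0.841). FZD6 (0.24, adjusted p = 0.163) and FZD5 (-0.15, adjusted p = 0.528) did not pass.

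The co-receptors of the beta-catenin branch showed small differences. LRP5 differed by 0.078 (95% confidence interval -0.35 to 0.51) and LRP6 by 0.056 (-0.28 to 0.39), so that a change of over 0.51 in either direction lay outside both intervals. RYK, a kinase-like Wnt receptor, differed by -0.015 (-0.21 to 0.18), the smallest absolute difference of the 38 genes. LGR4, the R-spondin receptor, differed by 0.35 (adjusted p = 0.237), and by 0.19 (adjusted p = 0.360) without sictrl A3.

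ROR1, a receptor for WNT5A, had levels of 2.50, 2.61, 2.47 and 2.67 in sictrl and 1.27, 2.09, 2.06 and 2.13 in siUCA1 with its brightest probe. All siUCA1 values were under the sictrl values, and siUCA1 A1 was far under the other 3. The difference of -0.67 (SE 0.19, adjusted p = 0.0545) just missed the threshold, and without siUCA1 A1 it was smaller and passed, at -0.47 (adjusted p = 0.0153). A second probe of the same transcript (NM_005012) gave 0.96, 1.11, 1.23 and 1.09 in sictrl and 0.80, 0.38, 0.38 and 0.41 in siUCA1, again without overlap, with a difference of -0.61 (adjusted p = 0.0171 when the 19048 kept probes were tested singly). On this probe siUCA1 A1 was the highest of the siUCA1 arrays, the reverse of the first probe. The probe of the other transcript (NM_001083592) gave -0.13 (adjusted p = 0.657).

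RNF43 and ZNRF3 are ubiquitin ligases that remove Frizzled receptors from the cell surface. RNF43 had levels of 0.25, 0.82, 0.64 and 0.62 in sictrl and -0.21, 1.28, 1.32 and 1.68 in siUCA1. On siUCA1 A1 it was lower than on every sictrl array, and on the other 3 siUCA1 arrays higher than on all of them. The difference was 0.43 (SE 0.37, adjusted p = 0.496), and 0.84 (adjusted p = 0.0156) without siUCA1 A1. Over all fits with 1 array left out it ran from 0.21 to 0.84 (adjusted p up to 0.765). ZNRF3 differed by 0.13 (adjusted p = 0.369).

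SFRP1 (NM_003012), a secreted antagonist that binds Wnt ligands and Frizzled receptors, had levels of -1.86, -1.60, -1.81 and -1.83 in sictrl and -0.95, -0.93, -1.18 and -1.07 in siUCA1. The groups did not overlap, and sictrl M2 came closest to the siUCA1 arrays. It rose by 0.75 (SE 0.10, 1.68-fold, adjusted p = 0.00439) and passed with any 1 array left out (adjusted p up to 0.0225). Under other alternatives in processing the SFRP1 rise ran from 0.34 to 0.78 (adjusted p up to 0.162). DKK3, a divergent member of the Dickkopf family, differed by -0.14 (adjusted p = 0.744).

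Dishevelled proteins are the scaffolds that pass the signal on from Frizzled, and Naked cuticle proteins bind and restrain them. DVL1 had levels of 6.91, 7.01, 7.15 and 7.39 in sictrl and 6.26, 6.87, 6.96 and 6.83 in siUCA1. NKD2 had levels of 3.72, 3.58, 3.82 and 3.85 in sictrl and 3.50, 2.91, 3.32 and 3.33 in siUCA1. DVL1 overlapped between the groups and NKD2 did not. The difference was -0.39 for DVL1 (SE 0.17, adjusted p = 0.191), for which a second probe gave -0.14. Without siUCA1 A1 the DVL1 difference was -0.23 (adjusted p = 0.267), without both that array and sictrl A3 it was -0.14, and with the remaining surface trend removed it was -0.40 and passed (adjusted p = 0.0158). That removal used deviations from the mean of each group, which can narrow the spread within groups and so lower p. For NKD2 the difference was -0.47 (SE 0.14, adjusted p = 0.0615), and -0.55 (adjusted p = 0.0344) without siUCA1 A1. NKD2 passed when the replicate name was fitted as a block. DVL2 also did not overlap between the groups, with a difference of 0.27 (adjusted p = 0.0754), and DVL3 differed by 0.037 (adjusted p = 0.869).

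No component of the destruction complex passed the threshold in limma, and 1 of the 5 tested, GSK3A, had an unadjusted p under 0.05. With shares of 11.4% and 27.5% over all genes, counts this low in 5 genes do not set the complex apart. AXIN2, which both restrains beta-catenin and is one of its most widely used target genes, had levels of -0.81, -0.75, -1.00 and -1.19 in sictrl and -0.56, -0.92, -1.70 and -0.71 in siUCA1. The groups overlapped, and siUCA1 A2 was the lowest of the 8 arrays. The difference was -0.037 (95% confidence interval -0.57 to 0.50, adjusted p = 0.941), and a second probe gave -0.091. Without siUCA1 A2 the AXIN2 difference was 0.20 (adjusted p = 0.476), and it was -0.12 without sictrl A3 and -0.18 without siUCA1 A1. GSK3A, 1 of the 2 kinases that mark beta-catenin for degradation, did not overlap between the groups and differed by 0.22 (adjusted p = 0.145). The other kinase, GSK3B, differed by 0.082 (adjusted p = 0.705), and the scaffolds AXIN1 and APC by -0.072 (adjusted p = 0.724) and 0.024 (adjusted p = 0.952). With 1 array left out the GSK3B difference ran from 0.043 to 0.19.

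CTNNB1 (NM_001904), which encodes beta-catenin itself, had levels of 4.90, 4.92, 4.96 and 5.20 in sictrl and 4.90, 4.77, 4.80 and 4.95 in siUCA1. The groups overlapped, with 3 sictrl arrays close together and sictrl A3 above them. The difference was -0.14 (SE 0.10, 95% confidence interval -0.37 to 0.090, adjusted p = 0.411), so that a fall of over 0.37 lay outside the interval. Without sictrl A3 it was -0.074 (adjusted p = 0.616). The second CTNNB1 probe gave -0.096. The arrays measured RNA, and the amount or location of the beta-catenin protein was not measured.

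**Figure D3:**
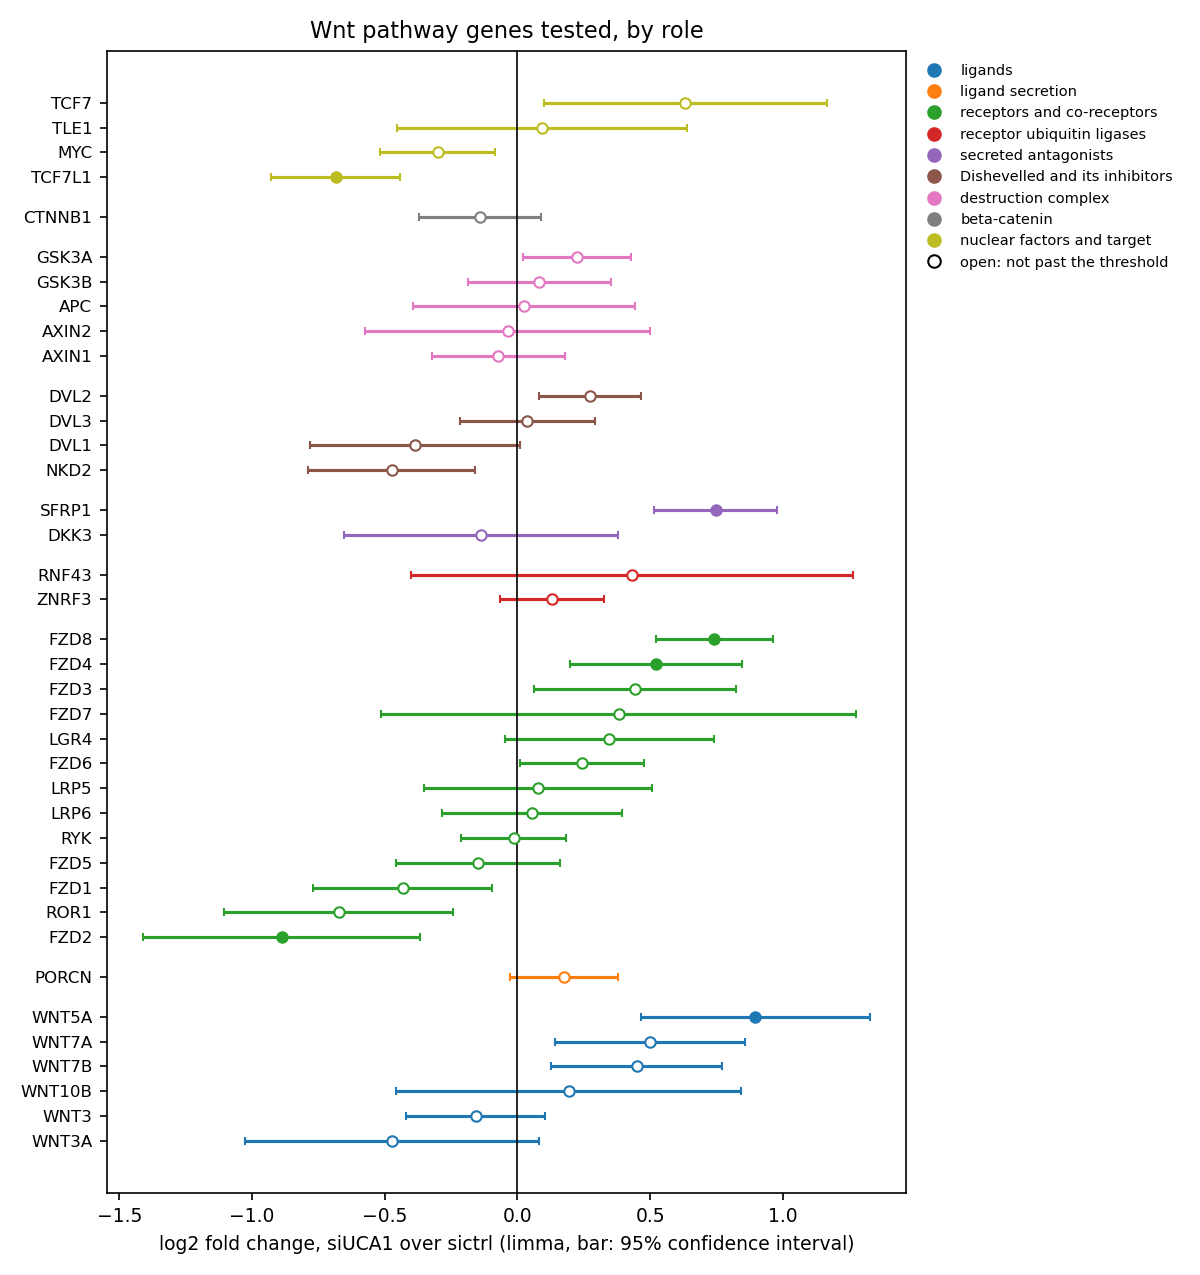
Points are the log2 differences of the 38 tested genes, siUCA1 minus sictrl, grouped by role, and lines are their 95% confidence intervals. Intervals of WNT5A, FZD8, SFRP1 and FZD4 lie above 0 and those of FZD2 and TCF7L1 below, while those of CTNNB1 and AXIN2 include 0.

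TCF and LEF factors carry beta-catenin to DNA, and of the 4 listed, TCF7 and TCF7L1 were tested. TCF7L1 (NM_031283, chromosome 2, 85133392 to 85310387), which mostly acts as a repressor of target genes, had levels of 1.29, 1.51, 1.36 and 1.45 in sictrl and 0.65, 0.91, 0.76 and 0.55 in siUCA1. The groups did not overlap, and siUCA1 A3 was the lowest. It fell by 0.69 (SE 0.11, 1.61-fold, adjusted p = 0.00687) and passed with any 1 array left out (adjusted p up to 0.0276). TCF7 had levels of -0.93, -1.44, -1.48 and -1.24 in sictrl and 0.040, -0.65, -0.95 and -1.00 in siUCA1. Its highest value was on siUCA1 A1, and sictrl A1 lay above siUCA1 A3, so the groups overlapped. The difference was 0.63 (SE 0.24, adjusted p = 0.122), opposite in sign to TCF7L1 but not past the threshold, and 0.41 (adjusted p = 0.133) without siUCA1 A1.

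MYC, a growth regulator and a classical beta-catenin target, had levels of 5.13, 5.00, 5.14 and 5.09 in sictrl and 4.92, 4.62, 4.80 and 4.82 in siUCA1. No siUCA1 value reached the lowest sictrl value, but the difference was small, -0.30 (SE 0.096, adjusted p = 0.0790). It was -0.35 (adjusted p = 0.0467) without siUCA1 A1. TLE1, a corepressor of the TCF factors, differed by 0.094 (adjusted p = 0.845) with its brightest probe. A TLE1 probe for another transcript (NM_001303104) did not overlap between the groups, with a difference of 0.49 (adjusted p = 0.0143 over the kept probes), whereas the last (NM_001303103) gave 0.12.

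**Figure D4:**
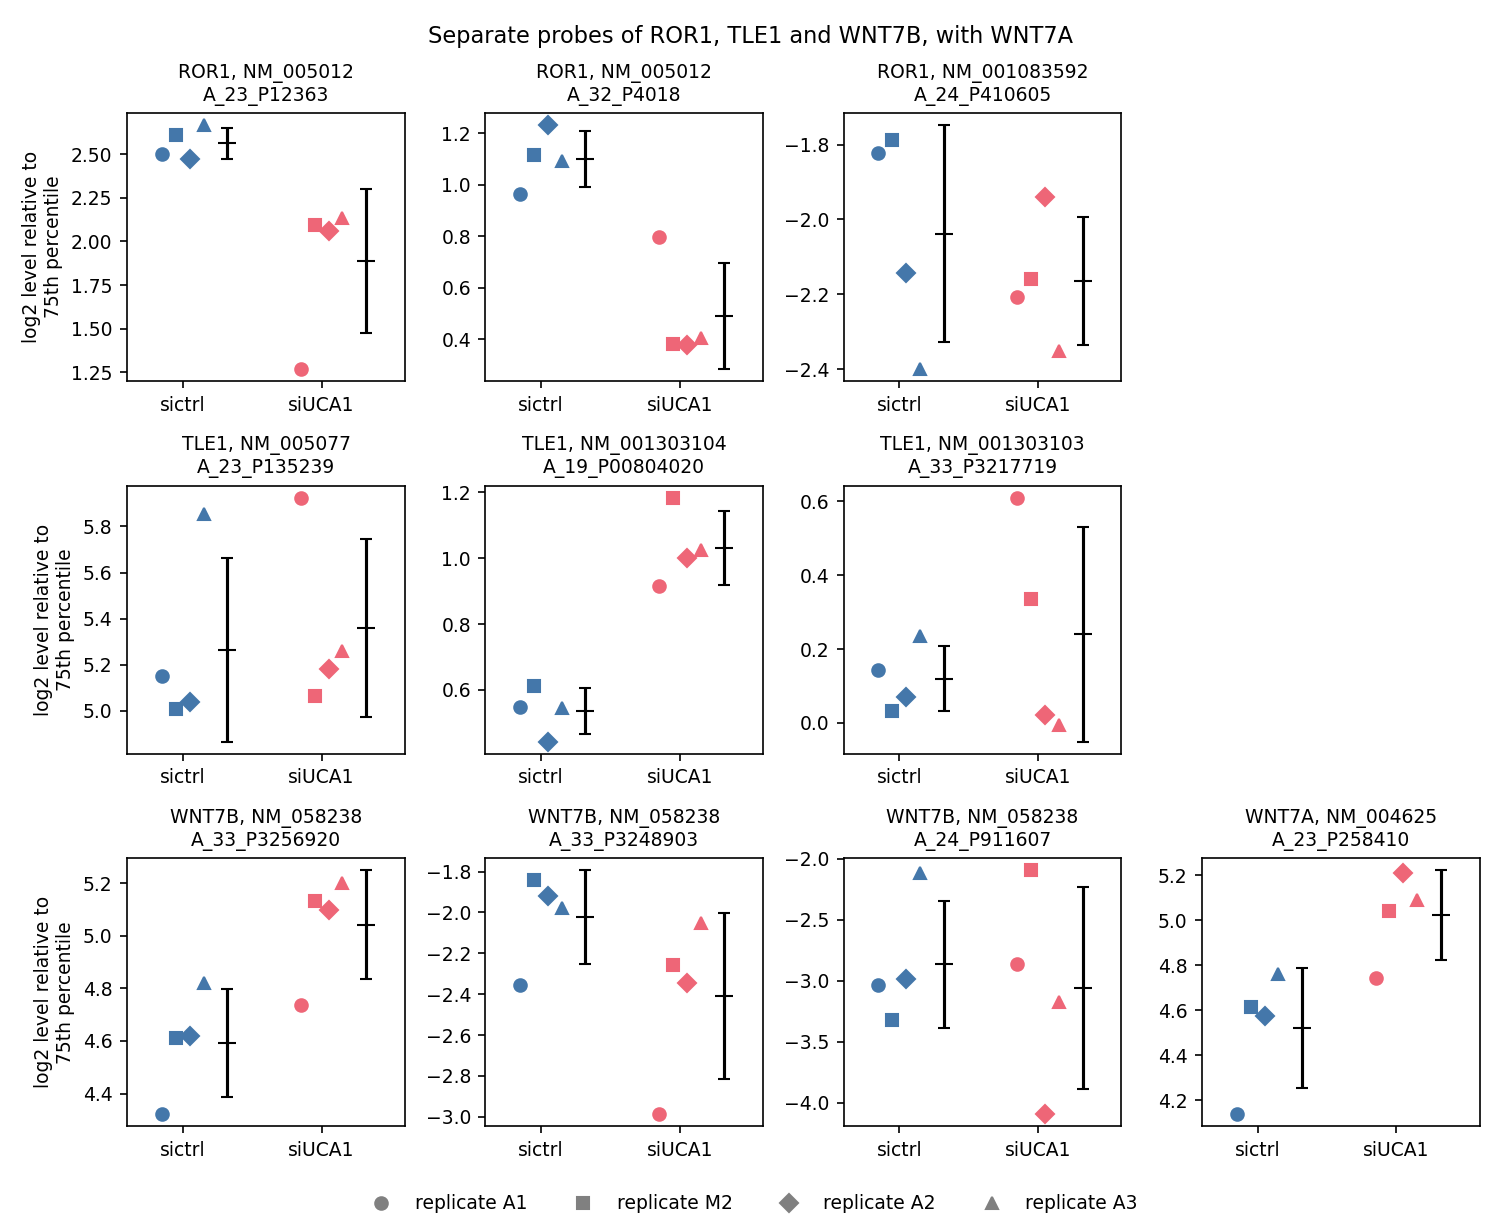
Each panel is 1 probe of ROR1, TLE1 or WNT7B, or the WNT7A probe, with points for the 4 sictrl and 4 siUCA1 arrays (log2 level relative to the 75th percentile, marker shape by replicate) and bars for mean and SD. The first 2 ROR1 panels separate the groups but place siUCA1 A1 at opposite ends, the middle TLE1 panel is the 1 TLE1 probe whose groups do not overlap, and the bright WNT7B probe follows WNT7A where the other WNT7B probes do not.

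Letters of the TCF and LEF recognition motif, CTTTGAA or CTTTGAT on either strand, were looked for in promoters from 250 bases before to 50 bases after the start site (RefSeq, GRCh38.p14). The table held a promoter for 37 of the 52 genes, and 1 of them, DKK1, contained a match (2.70%). The share over all 27305 promoters was 6.98%, and over the 9517 of tested genes 3.87%. None of 26 promoters of tested pathway genes had these letters, nor did those of the 4 changed genes that were listed. The DKK1 match is printed because it was the 1 match among the 37. It lies 95 bases before the start, at chr10:52314175-52314203 on the plus strand, with the motif in capitals. DKK1 RNA was not well above background on any of the 8 arrays.
DKK1: ccctcccagcgCTTTGAAatcccatcccg

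A further 142 genes of the pathway were listed, of which 88 were tested and 18 changed (20.5%, against 11.4% of all genes), 10 upwards and 8 downwards, with a median difference of 0.050. Of 18 extracellular antagonists only 5 were tested, and 3 of these changed (60%, against 11.4% of all genes). SHISA3, which retains Frizzled receptors inside the cell, fell by 1.11 (adjusted p = 0.0276), though its groups overlapped (two-sided exact permutation p = 0.0571). KREMEN2, a Dickkopf receptor, fell by 0.74 (adjusted p = 0.0250), and APCDD1, an inhibitor at the membrane, rose by 0.46 (adjusted p = 0.0431). Of 5 further receptors 0 passed in limma, with 2 at an unadjusted p under 0.05, and of the 1 further ligand tested 0 passed by either measure.

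Among 17 genes of the destruction complex and beta-catenin turnover, 3 rose and 1 fell (23.5%, against 11.4% of all genes). PPP2CA, a catalytic subunit of protein phosphatase PP2A, fell by 0.80 (adjusted p = 0.00413). FRAT2, which binds GSK3 and keeps it from AXIN, rose by 0.60 (adjusted p = 0.0301), as did FBXW11, a ubiquitin ligase subunit that recognizes phosphorylated beta-catenin (0.41, adjusted p = 0.0176). TNKS, a tankyrase that marks AXIN for degradation, named after its value was seen, rose by 0.39 (adjusted p = 0.0380). TNKS did not pass with any 1 array left out (adjusted p 0.0513 to 0.0981). Of the 3 that rose, FBXW11 is known to aid beta-catenin loss and FRAT2 and TNKS to oppose it.

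Of 16 nuclear factors, 3 rose and 1 fell (25%, against 11.4% of all genes). TLE2, a corepressor, rose by 0.72 (adjusted p = 0.0297), SOX17, which is also on the serous marker list, by 0.60 (adjusted p = 0.00687), and the acetyltransferase EP300 by 0.51 (adjusted p = 0.0132). BCL9L, a coactivator that binds beta-catenin, named after its value was seen, fell by 0.40 (adjusted p = 0.0324), and by 0.64 with its second probe. Of 5 adhesion genes, CDH1, the cadherin that tethers beta-catenin at cell junctions and a serous marker too, fell by 0.81 (adjusted p = 0.0151). In the planar polarity and calcium branch 2 of 21 changed (9.52%), a share under the 11.4% of all genes. DAAM1, a formin that binds Dishevelled, rose by 0.62 (adjusted p = 0.0470), and the GTPase RAC1 fell by 0.57 (adjusted p = 0.0125). With 1 array left out the adjusted p of DAAM1 ran from 0.0286 to 0.131.

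Of 18 reported beta-catenin target genes, 2 rose and 2 fell (22.2%, against 11.4% of all genes), with a median difference of -0.032. PPARD, a nuclear receptor, fell by 0.84 (adjusted p = 0.00534) and CCN1, a matricellular protein, by 0.71 (adjusted p = 0.0174). NRCAM, a neural adhesion molecule, rose by 0.79 (adjusted p = 0.0322), and BAMBI, a pseudoreceptor of the TGF-beta family that was named after its value was seen, by 0.70 (adjusted p = 0.00753). Of the 18 changed genes outside the first list, the number that passed was 10, 8, 7 and 15 without sictrl A1, M2, A2 and A3 in turn and 17, 7, 7 and 12 without siUCA1 A1, M2, A2 and A3.

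Counts of changed genes among the 38 depended on single arrays. With 1 array left out, 5, 4, 3 and 5 passed without sictrl A1, M2, A2 and A3 and 11, 3, 3 and 4 without siUCA1 A1, M2, A2 and A3. The share of all genes that passed moved as well, to 6.92, 5.27, 4.77 and 13.8% in the first 4 of these fits and 14.5, 5.44, 4.86 and 6.94% in the last 4. FZD8, SFRP1 and TCF7L1 were among those that passed in each of these 8 fits. Each row of the slide held 2 arrays of either group, and within the first and the second row the mean differences were 0.85 and 0.94 for WNT5A, 0.76 and 0.73 for FZD8 and 0.70 and 0.80 for SFRP1. They were 0.57 and 0.48 for FZD4, -0.93 and -0.84 for FZD2 and -0.83 and -0.54 for TCF7L1. All 6 had the same direction in both rows, which for every gene but FZD2 follows from groups that do not overlap.

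**Figure D5:**
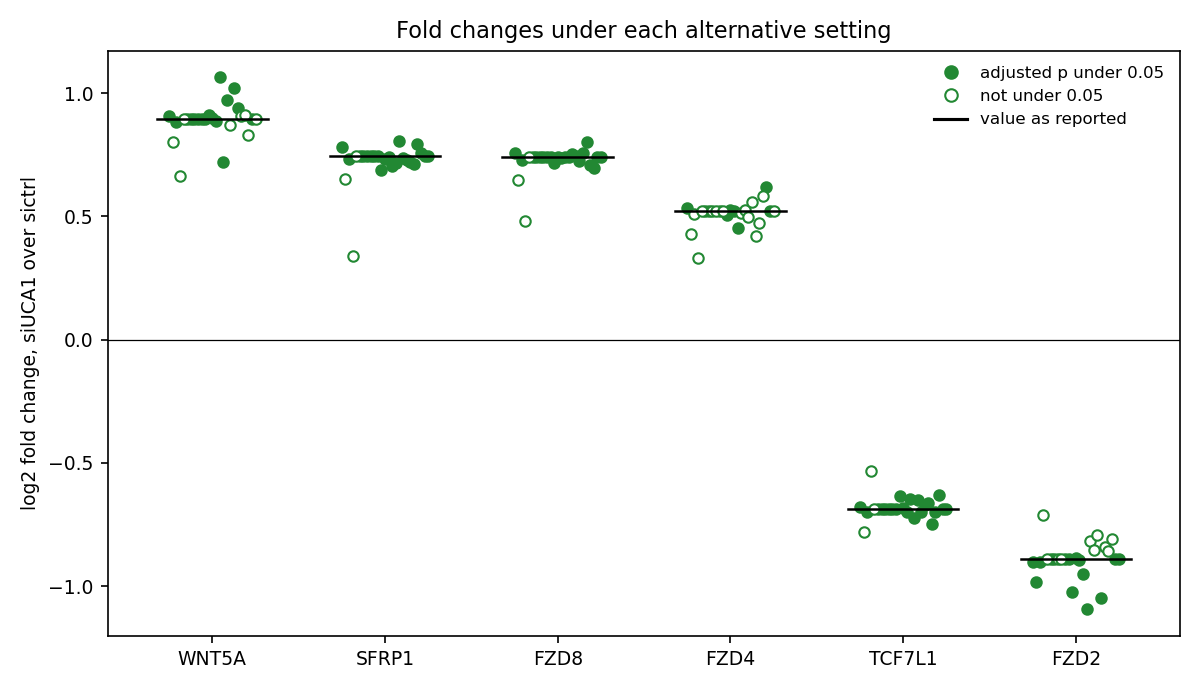
Points are the log2 differences of WNT5A, SFRP1, FZD8, FZD4, TCF7L1 and FZD2 under 25 alternatives in processing or choice of arrays, filled where the adjusted p was under 0.05 and open where it was not, and lines are the reported values. No point of the 6 genes crosses 0, and FZD4 has the most open points, 15.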

How the data were processed

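Total RNA of 4 sictrl and 4 siUCA1 cultures of OAW42-R cells was hybridized to 1-colour Agilent arrays on 1 slide, and groups and replicate names were taken from the labels. The authors deposited Agilent Feature Extraction 10.7.3.1 output (version per the submitters' processing notes), in which the processed signal is a linear intensity per spot after background subtraction and correction of a surface trend, with no scaling between arrays. The value table of the series held the same intensity (largest relative difference 0). No spot of 62976 was saturated. Arrays give no read depth, and their number, 4 per group, limits the precision.

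Each deposited intensity was put on the log2 scale and set against its own array by subtracting the 75th percentile over 60901 spots that were not controls. Control spots and outlier spots (76 to 132 per array) were left out and spots of a probe averaged. A probe was kept if it stood well above background on all arrays of one group or the other, and the brightest kept probe stood for its gene. Of 58201 probes, 31104 were named by accession from RefSeq annotation of GRCh38.p14. The study's methods name limma with Benjamini-Hochberg correction, and limma 3.58.1 (lmFit, eBayes) was run without a covariate (R 4.3.3; package data.table, version 1.17.8), after a test on simulated data. Single genes were also compared by two-sided exact permutation tests. Figures were drawn with Python 3.11.15, pandas 2.3.3 and matplotlib 3.10.9.

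The genes and lists were chosen with earlier results of these data known. Every array's value is given for genes past the threshold, for CTNNB1, AXIN2 and MYC, and for the 10 other tested genes with the largest absolute differences. From each further list, up to 3 changed genes with the largest absolute differences are named. Alternatives covered scaling, background correction, filters, probe choice, variance model, slide position, surface trend, left-out arrays and the value table of the series. The surface trend was estimated from deviations of spots from the mean of their own group, so its removal can narrow the spread within groups. The column of the slide as a block was added after seeing the data. Normexp used the median spot intensity. The leukocyte marker list is not reported here in full.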

Additional observations from a re-analysis of the deposited data

Results flagged for a closer look

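In 76 groups of 4 values, 4 had 1 array whose gap to the nearest other array was over 0.829 of the range of the group, where chance gives about 1 in 20 groups. ROR1 on siUCA1 A1 was at 1.27, against 2.06 to 2.13 on the other 3 arrays (gap over range 0.914). LRP5 on the same array was at 1.00, against 0.46 to 0.53 (0.869). GSK3B on sictrl A3 was at 3.45, against 3.02 to 3.04 (0.943). TLE1 on sictrl A3 was at 5.85, against 5.01 to 5.15 (0.831). All 4 values were on the 2 arrays with the larger surface trend corrected by the scanner software, whose part in these values was not tested.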

How the results depend on the processing

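None of the 6 changed genes reversed direction in 25 alternatives. FZD8, SFRP1 and TCF7L1 passed in 22, WNT5A in 17, FZD2 in 15 and FZD4 in 10. Of the alternatives, 1 used the value table of the series, whose intensities are the same, so it was bound to repeat the reported fit. The number of the 38 genes that passed, 6 as reported (4 higher, 2 lower), was 1 under median scaling (0 higher, 1 lower), 0 (0 and 0) with normexp and 0 (0 and 0) of 51 with no detection filter (3.38, 2.50 and 0.163% of all genes; in the last 2, by limma, 10 and 12 at an unadjusted p under 0.05). It was 18 (12 and 6) with array weights, where 30.1% of all genes passed, 11 after removal of the remaining surface trend (5 lower; 15.4% of all genes) and 13 (8 and 5) without both sictrl A3 and siUCA1 A1 (24.4%). Lower genes numbered 5 under quantile normalization, 4 with trend and robust settings and 1 with the row of the slide as a block, and higher genes 2 with the column as a block. With 1 array left out, 3 to 11 genes passed, 2 to 6 higher and 1 to 5 lower. With the replicate block 7 passed, 4 of them the same and, in addition, WNT7A (adjusted p = 0.0336), WNT7B (0.0305) and NKD2 (0.0480), the adjusted p of FZD2 was 0.110 and of FZD4 0.0759, and not every array correlated best with the one of its own name. The names were not taken as pairs, since neither the labels nor the methods tie them to experiments. Deviations of same-named arrays correlated at 0.038 to 0.278 and those of other arrays at -0.311 to 0.205, which does not settle whether the names mark pairs. Of the further pathway genes, 18 as reported, 4 passed under median scaling, 5 with normexp, 0 with no filter (29 at an unadjusted p under 0.05), 40 with array weights, 34 without both arrays and 7 to 21 with 1 array left out. The cause of these shifts was not tested.

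Reversals concerned genes near 0 that did not pass. Under median scaling LRP5 was -0.017, LRP6 -0.039, DVL3 -0.057, APC -0.071, GSK3B -0.013 and TLE1 -0.0010. With normexp LRP6 was -0.010, APC -0.025 and DKK3 0.0026. LRP6 was -0.017 with array weights, and DKK3 0.073 without both arrays. With 1 array left out the range was -0.045 to 0.43 for WNT10B, -0.057 to 0.21 for LRP5, -0.031 to 0.19 for LRP6, -0.050 to 0.013 for RYK, -0.012 to 0.091 for DVL3, -0.10 to 0.16 for APC, -0.18 to 0.20 for AXIN2 and -0.095 to 0.29 for TLE1.

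The 13 listed genes that did not pass the filter, 12 of them at background on every array, have no reported difference.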
